A study of Rattus norvegicus and Mus musculus with 12 samples.

Results

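Mineral forms in cartilage and bone under the control of a small set of genes, and 9 of them were followed here in rat and mouse articular chondrocytes treated with interleukin-1β (IL-1β), an inflammatory cytokine. They were Mgp and Ucma (vitamin K-dependent matrix proteins that hold mineral back), Spp1 (osteopontin) and Ibsp (bone sialoprotein), Enpp1, Ank, Alpl, Phospho1 and Slc20a1 (enzymes and transporters of phosphate and pyrophosphate). Each was found by its symbol in the rat table of 19687 genes and in the mouse table of 28603 genes; the rat table lists Ank under the symbol Ankh. All 9 genes were present and tested in both species. They were chosen by name with the model-against-control results of these same libraries already known, so their changes are given as a description, without P values.

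Hydroxyapatite grows from calcium and inorganic phosphate, and pyrophosphate blocks that growth. ENPP1 makes pyrophosphate outside the cell from ATP, ANK carries ATP and pyrophosphate out of the cell, and tissue-nonspecific alkaline phosphatase, the product of Alpl, destroys pyrophosphate and releases phosphate. MGP and UCMA are Gla proteins, in which carboxylated glutamate residues bind calcium, and healthy articular cartilage stays unmineralized while the growth plate mineralizes.

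The libraries came from chondrocytes of the articular cartilage of newborn animals (24 h old), cultured to the first passage, and the labels name the tissue as cartilage. The rat control (RC) and rat model (RM) groups were Sprague–Dawley rats, the mouse control (MC) and mouse model (MM) groups were C57BL mice, and each group had 3 libraries. The model groups had received 20 ng/ml IL-1β for 24 h and the control groups complete medium alone. The mouse labels number the strain differently in each replicate (C57BL/6, C57BL/7 and C57BL/8 for MC, C57BL/7, C57BL/8 and C57BL/9 for MM), whereas the methods of the study name C57BL/6. Per those methods the 3 samples of a group were independent, but the number of animals behind each culture is not given in the sources used here.

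Counts per library summed to between 20169272 and 25903459 in rat and between 16841580 and 20048322 in mouse. Levels below are FPKM (fragment counts scaled to exon length and library size) as deposited, and changes are log2 fold changes from edgeR fits to the counts with trimmed mean of M values (TMM) scaling, each with its standard error (SE). The study filtered genes on fold change, P value and FPKM, and its fold limit of 0.85 was read here as a log2 fold change, up or down, and its P limit of 0.05 as unadjusted, neither of which its methods state. A gene was called changed when it passed both and 1 or more libraries reached 1 FPKM. TMM scaling moved the median log2 fold change of all tested mouse genes from -0.30 to -0.02, so mouse fold changes from the fit lie above the plain FPKM ratios, whereas in rat the median was 0.02 before and 0.01 after.

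The summed FPKM of 8 chondrocyte markers (Col2a1, Acan, Sox9, Hapln1, Comp, Cnmd, Matn1, Col9a1) was 4059 to 4725 in RC and 1435 to 1491 in RM, and 2078 to 2123 in MC and 173 to 186 in MM. Of these markers 7 were called lower in RM and all 8 in MM. The sum of 5 osteoblast-lineage markers, carried by Col1a1, went from 2030 to 2407 in RC to 1105 to 1246 in RM, and from 1878 to 1914 in MC to 553 to 565 in MM. The 4 smooth muscle markers summed to 154 to 176 in MC and 6.36 to 6.49 in MM, and to 160 to 203 in RC and 175 to 209 in RM. This sum was carried by Acta2 in mouse (165 FPKM in MC) and by Tagln in rat (156 FPKM in RC). In rat Acta2 was called lower (-0.853) and Myh11 higher (1.205), which the sum does not show. The osteoclast markers, carried by Ctsk, summed to 31.4 to 33.4 in RC, 17.1 to 18.1 in RM, 137 to 143 in MC and 155 to 156 in MM. Ctsk was called lower in RM (-0.96) and was not called in mouse (0.45). Mouse Acp5 of this set went from 2.94 to 1.92 FPKM and was not called. The 6 macrophage markers summed to at most 8.83 in RC, 12.4 in RM, 6.36 in MC and 13.4 in MM. Of them Cd68 was called higher in both models, from 3.96 to 7.63 FPKM in rat (log2 fold change 0.92) and from 3.52 to 8.24 in mouse (1.51), and Lyz2 was called higher in MM (1.01) and lower in RM (-0.87). Csf1r and Mrc1 were not called in either species. In rat Csf1r was at -1.20 and Mrc1 at 1.19 on the log2 scale, past the limit, but every rat library was below 1 FPKM. In mouse they were at 0.70 and -0.37. The leukocyte marker Ptprc and the macrophage marker Adgre1 were near 0: Adgre1 had 1 count over the mouse libraries and Ptprc 3 counts in MC and 1 in MM, while in rat Adgre1 had 18 counts in RC and 23 in RM and Ptprc 20 and 16. The osteoclast marker Calcr had 1 count over the rat libraries and 3 over the mouse libraries, and the endothelial sum stayed at or below 0.5045 in every library. Within that sum, from MC to MM, Cdh5 went from 2 to 29 counts and Kdr from 17 to 39, whereas Tek went from 96 to 50. Cdh5 and Kdr did not pass the filter on low counts, and Tek was not called. The part of these marker changes in the results below was not tested, and in bulk RNA fewer cells of a type and less RNA per cell cannot be told apart.

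Promoter sequences are shown for 3 of the members that were called the same way in both species: Ucma and Alpl, lower in both model groups, and Spp1, higher in both. Each run is the 250 bases before the RefSeq start site on the rat assembly GRCr8, read in the direction of the gene. GRCr8 is not the build of the deposited rat table, Rnor_6.0. Capitals mark a match, on either strand, to the AP-1 motif TGANTCA or to the RUNX motif TGTGGT (whose opposite strand reads ACCACA).
Ucma, rat, chr17:78212997-78213246, minus strand: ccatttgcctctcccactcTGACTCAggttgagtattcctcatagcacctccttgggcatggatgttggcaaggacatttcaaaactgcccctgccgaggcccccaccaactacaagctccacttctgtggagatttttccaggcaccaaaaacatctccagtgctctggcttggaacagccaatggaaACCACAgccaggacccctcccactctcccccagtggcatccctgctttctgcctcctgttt
Alpl, rat, chr5:155289786-155290035, minus strand: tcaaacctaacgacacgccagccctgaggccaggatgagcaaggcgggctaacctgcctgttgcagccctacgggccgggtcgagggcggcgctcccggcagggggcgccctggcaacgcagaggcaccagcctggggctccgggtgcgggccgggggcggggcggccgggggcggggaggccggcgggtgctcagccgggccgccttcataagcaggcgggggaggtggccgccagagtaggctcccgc
Spp1, rat, chr14:5619805-5620054, minus strand: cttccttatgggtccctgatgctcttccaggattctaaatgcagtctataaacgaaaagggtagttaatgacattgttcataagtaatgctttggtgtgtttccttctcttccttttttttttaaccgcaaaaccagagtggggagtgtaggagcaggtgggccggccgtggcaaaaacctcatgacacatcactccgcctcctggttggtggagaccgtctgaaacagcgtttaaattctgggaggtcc
The Ucma window held an AP-1 match at 231 to 225 bases before the start and a RUNX match, on the opposite strand, at 61 to 56 bases. The Alpl and Spp1 windows held neither, and G and C made up 76% of the Alpl window, 54.4% of the Ucma window and 46.8% of the Spp1 window. The window of Ankh, also called lower in both model groups, is not shown. It held neither motif, and G and C made up 79.2% of it. RefSeq entries were matched for 6 of the 9 members (Ucma, Spp1, Ibsp, Ankh, Alpl, Phospho1), not for Mgp, Enpp1 or Slc20a1. Over the 6 windows the AP-1 motif occurred in 2 (Ucma and Phospho1) and the RUNX motif in 1 (Ucma), and among all 33469 rat promoter windows of this length in 6.34% and 14.5%. The C/EBP motif TTGCNNAA and the NF-κB consensus occurred in none of the 6 windows and in 9.22% and 3.54% of all windows. A match is a run of letters in this window and was not tested as a binding site.

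**Figure D1:**
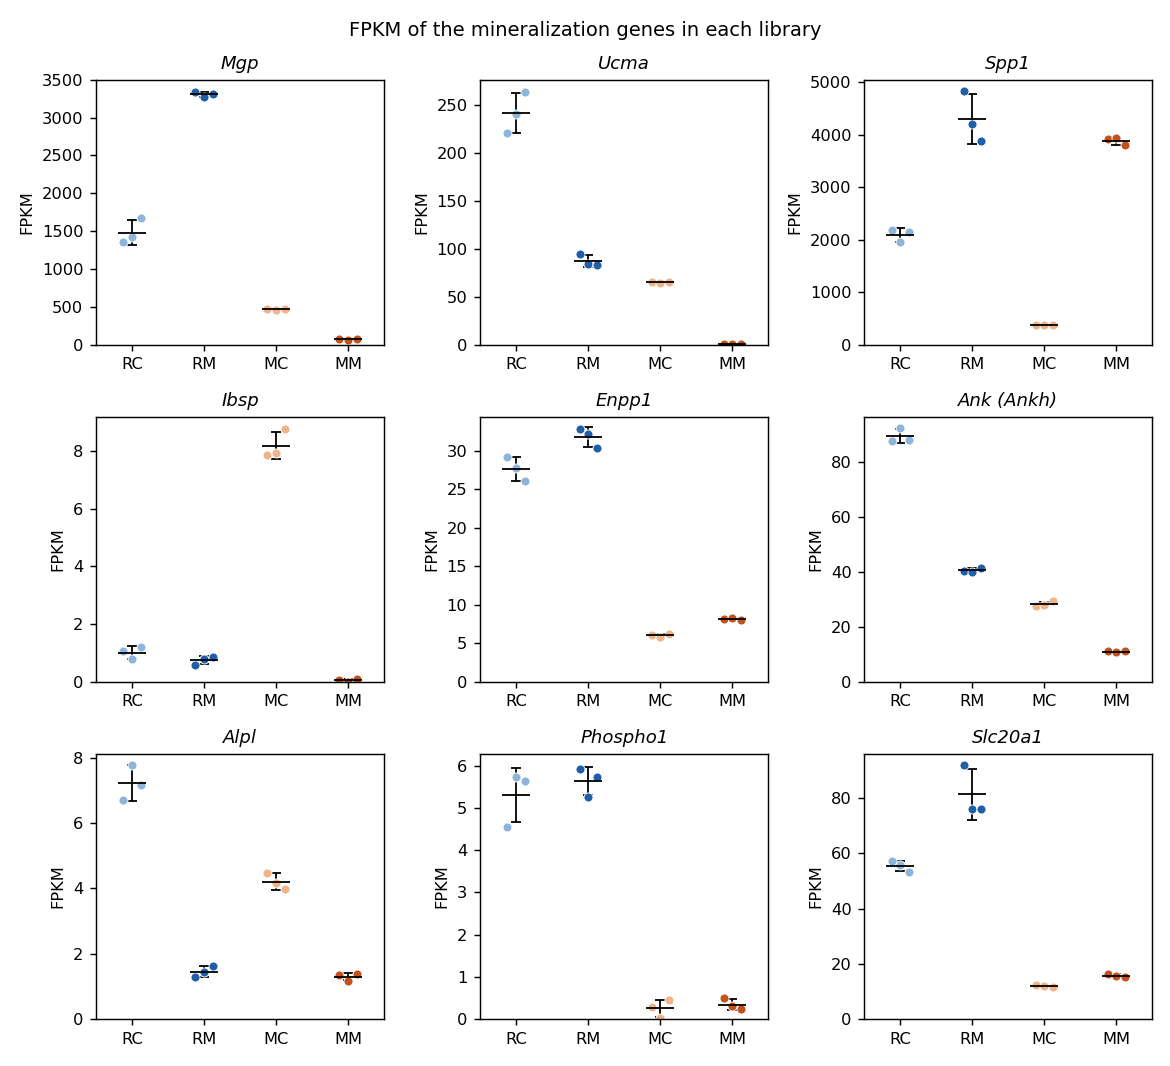
FPKM (vertical axis, linear from 0, own scale in each panel) of the 9 genes in the 12 libraries, by group (horizontal axis); points are libraries, bars the mean and SD (n = 3). Mgp was higher in RM than in RC and lower in MM than in MC, Spp1 was higher in both model groups, and Ucma, Ank and Alpl were lower in both.

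In rat, 2 of the 9 members were called higher in RM (Mgp, Spp1), against 4.64% of all 13303 tested genes, and 3 were called lower (Ucma, Ankh, Alpl), against 3.90%. In mouse, 1 was called higher in MM (Spp1), against 12.6% of all 14774 tested genes, and 5 were called lower (Mgp, Ucma, Ibsp, Ank, Alpl), against 13.0%. The members were picked with these contrasts known, and nothing is read from these counts. The median log2 fold change of the 9 members was 0.07 in rat and -1.08 in mouse, beside 0.01 and -0.02 over all tested genes.

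Mgp, matrix Gla protein, moved in opposite directions in the rat and mouse models. Its FPKM was 1352, 1417 and 1668 in RC and 3332, 3273 and 3315 in RM, and 467, 459 and 474 in MC and 70.7, 65.4 and 69.4 in MM. Every RM library was above every RC library, and every MM library was below every MC library. The log2 fold change was 1.15 (SE 0.08) in rat and -2.49 (SE 0.03) in mouse. By FPKM, Mgp stood between rank 25 and rank 28 of all genes in RC and at rank 10 in each RM library, whereas in mouse it went from rank 44 to 47 in MC to rank 562 to 616 in MM. The mouse gene (ENSMUSG00000030218; ENSRNOG00000005695 in rat) lies at chr6:136872435-136875823 on the minus strand of GRCm38, and none of its exon bases is shared with another annotated gene.

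Ucma, an inhibitor secreted by chondrocytes of the upper growth plate and articular cartilage, was lower in both models, and in mouse it was left near the detection limit. The FPKM was 221, 241 and 263 in RC and 94.3, 84.6 and 83.1 in RM. In mouse it was 65.8, 64.6 and 65.0 in MC and 0.395, 0.347 and 0.388 in MM. The groups did not overlap in either species. The MM values rest on 7, 6 and 6 counts against 995, 961 and 1032 in MC. Per TMM-scaled library size, the mouse ratio of control to model was 142 with an exact 95% interval of 91.1 to 237 that covers counting error only, and the log2 fold change was -7.13 (SE 0.14), beside -1.48 (SE 0.09) in rat. The mouse gene (ENSMUSG00000026668; ENSRNOG00000017987 in rat) lies at chr2:4976122-4985748 on the plus strand of GRCm38 and shares no exon bases with another gene.

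Within each library the ratio of Mgp to Ucma, both by FPKM, was 6.11 ± 0.227 (SD, n = 3) in RC and 7.17 ± 0.105 in MC, and it was 38.0 ± 2.36 in RM and 182 ± 5.60 in MM. The ratio was higher in every model library than in every control library, although Mgp itself went up in rat and down in mouse.

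Spp1, osteopontin, an acidic phosphoprotein that binds calcium and integrins and slows crystal growth, was higher in both models. The FPKM was 2180, 1947 and 2138 in RC and 4825, 4202 and 3874 in RM. In mouse it was 379, 369 and 377 in MC and 3915, 3932 and 3798 in MM. The control levels lay far apart in the deposited values, whereas the model levels of rat and mouse overlapped. In every MM library Spp1 was the 4th most abundant gene by FPKM and took 0.626% to 0.648% of all counts, from rank 60 to 63 in MC, and in rat it went from rank 15 to 20 in RC to rank 6 to 8 in RM. The log2 fold change was 1.03 (SE 0.08) in rat and 3.65 (SE 0.03) in mouse. The mouse gene (ENSMUSG00000029304; ENSRNOG00000043451 in rat) lies at chr5:104435118-104441050 on the plus strand of GRCm38, and 18.8% of its exon bases are shared with Gm42793 on the same strand, so that reads there could be split or dropped in counting.

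Ibsp, bone sialoprotein, which seeds hydroxyapatite and marks osteoblasts and hypertrophic chondrocytes, was called lower in mouse and was not called in rat. In rat the FPKM was 1.06, 0.781 and 1.20 in RC and 0.591, 0.800 and 0.865 in RM, from 135 and 103 counts, and the groups overlapped. In mouse it was 7.88, 7.95 and 8.75 in MC and 0.0724, 0 and 0.0830 in MM, from 881 and 6 counts. The mouse ratio of control to model was 133 per TMM-scaled library size, with an exact 95% counting interval of 60.9 to 364. The log2 fold change was -0.44 (SE 0.26) in rat and -6.97 (SE 0.26) in mouse. Its direction was thus opposite to that of Spp1 in mouse, although the mouse Ibsp gene (ENSMUSG00000029306; ENSRNOG00000002158 in rat), at chr5:104299171-104311469 of GRCm38, lies on the same strand as Spp1 with 123.6 kb between them. Mepe and Dmp1 of the same mouse cluster had 1 and 44 counts over the 3 MC libraries and none over the 3 MM libraries. For Dmp1 this is at least 13.3-fold lower in MM, taking 3 counts over the group as the limit.

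The genes of pyrophosphate supply did not move together. Enpp1, which makes pyrophosphate, had an FPKM of 29.1, 27.8 and 26.0 in RC and 32.8, 32.1 and 30.3 in RM, and of 6.05, 5.85 and 6.15 in MC and 8.18, 8.25 and 8.04 in MM. The groups did not overlap, but the log2 fold change, 0.18 (SE 0.07) for rat and 0.72 (SE 0.04) for mouse, stayed below the limit of 0.85 and was not called. Ank, the exporter (Ankh in rat), had an FPKM of 87.7, 92.3 and 87.9 in RC and 40.3, 39.8 and 41.5 in RM. In mouse it was 27.5, 28.1 and 29.2 in MC and 11.1, 10.7 and 11.2 in MM. The fall was of like size in both species, the log2 fold change being -1.16 (SE 0.06) for rat and -1.08 (SE 0.05) for mouse. In GRCm38, Enpp1 (ENSMUSG00000037370) lies at chr10:24637914-24712159 on the minus strand and Ank (ENSMUSG00000022265) at chr15:27466677-27594909 on the plus strand, and neither shares exon bases with another gene. The ratio of Ank to Enpp1 by FPKM went from 3.24 ± 0.198 (SD, n = 3) in RC to 1.28 ± 0.0780 in RM and from 4.70 ± 0.135 in MC to 1.35 ± 0.0451 in MM.

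Alpl, whose enzyme degrades pyrophosphate, was lower in both models. The FPKM was 6.69, 7.78 and 7.17 in RC and 1.28, 1.44 and 1.63 in RM, from 1215 and 249 counts. In mouse it was 4.48, 4.15 and 3.96 in MC and 1.34, 1.17 and 1.36 in MM, from 878 and 296 counts. The model levels of rat and mouse overlapped, and both were below every control library. The log2 fold change was -2.32 (SE 0.13) in rat and -1.43 (SE 0.12) in mouse, and Alpl was the member with the largest fall in rat. The mouse gene (ENSMUSG00000028766; ENSRNOG00000013954 in rat) lies at chr4:137741733-137796384 on the minus strand of GRCm38. The ratio of Enpp1 to Alpl by FPKM was higher in every model library: 3.85 ± 0.435 (SD, n = 3) in RC, 22.2 ± 3.48 in RM, 1.44 ± 0.102 in MC and 6.37 ± 0.623 in MM.

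**Figure D2:**
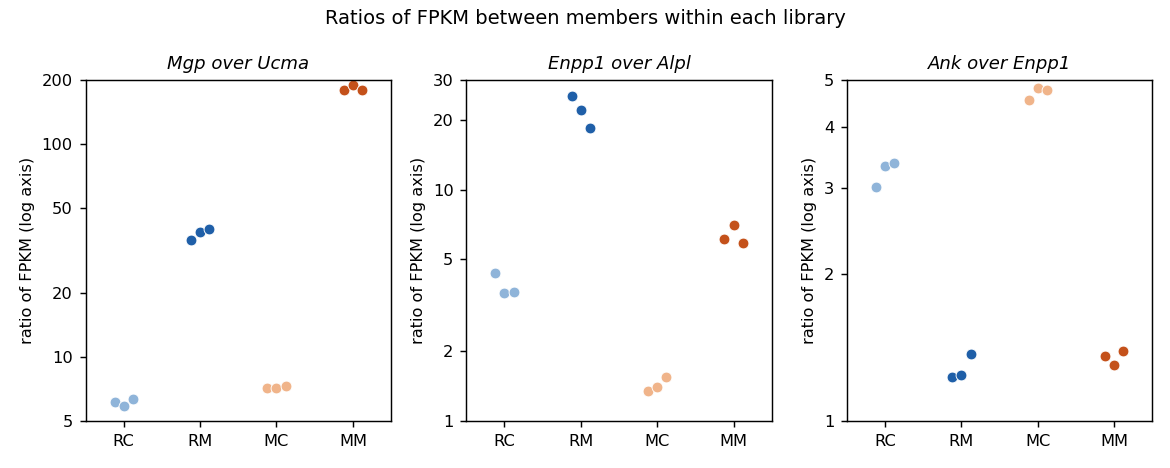
Ratios of FPKM between pairs of members within each library (vertical axes, logarithmic), by group (horizontal axis), with 1 point per library. The ratios of Mgp to Ucma and of Enpp1 to Alpl were higher in all model libraries than in the control libraries of the same species, and the ratio of Ank to Enpp1 was lower.

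Slc20a1 encodes PiT-1, a sodium-phosphate cotransporter that brings phosphate into the cell. Its FPKM was 57.1, 55.7 and 53.4 in RC and 92.0, 76.1 and 76.0 in RM, and 12.32, 12.01 and 11.73 in MC and 16.2, 15.7 and 15.2 in MM. The groups did not overlap in either species. The log2 fold change was below the limit and not called, at 0.54 (SE 0.09) for rat and 0.66 (SE 0.04) for mouse. The mouse gene (ENSMUSG00000027397; ENSRNOG00000018567 in rat) lies at chr2:129198764-129211616 on the plus strand of GRCm38, where 13.1% of its exon bases are shared with 9830144P21Rik and Gm4430 on the opposite strand, so that reads there could be dropped in counting without strand.

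Phospho1, a phosphatase of matrix vesicles that frees phosphate from phosphocholine and phosphoethanolamine, was not called in either species. The rat FPKM was 4.56, 5.73 and 5.64 in RC and 5.93, 5.27 and 5.74 in RM, with a log2 fold change of 0.07 (SE 0.13). The rat groups overlapped. In mouse the counts were 10, 1 and 16 in MC and 20, 12 and 8 in MM, too few for a firm value, with a log2 fold change of 0.70 (SE 0.46). The mouse gene, at chr11:95824499-95832140 on the plus strand of GRCm38, shares 89.6% of its exon bases with Abi3 on the opposite strand or Zfp652 on the same strand. Reads on shared bases can be dropped or split in counting, so the mouse level of 0.252 ± 0.207 FPKM (SD, n = 3) in MC is uncertain.

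**Figure D3:**
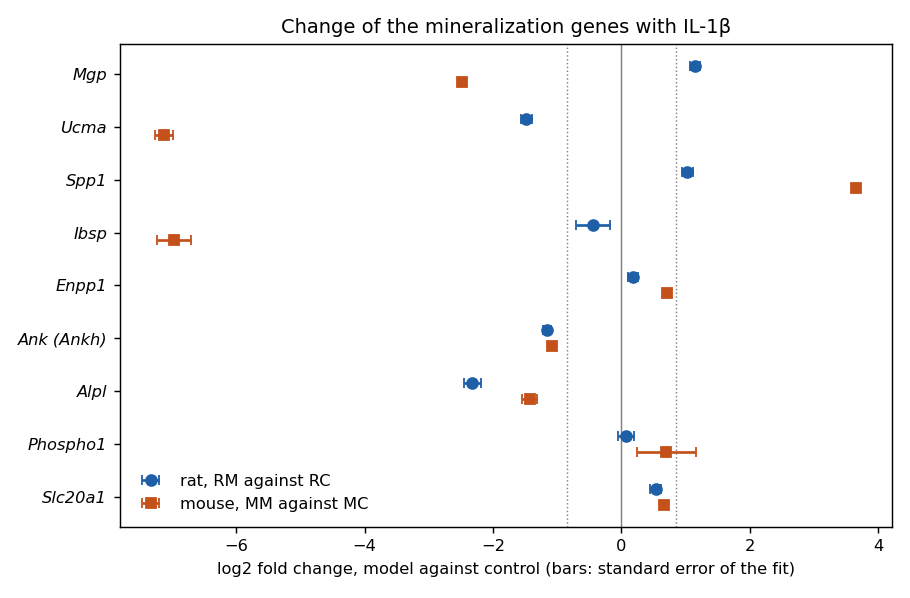
Log2 fold change of model against control (horizontal axis) for each member in rat (circles) and mouse (squares), with the standard error of the edgeR fit; dotted lines mark -0.85 and 0.85. Mgp lies at 1.15 in rat and -2.49 in mouse, and Ucma and Ibsp lie near -7 in mouse.

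The levels of the 4 groups were set in order by mean FPKM, across tables that were made separately for each species and with different gene models. The exon lengths behind the FPKM were 4098 bases in rat and 10257 in mouse for Enpp1. They were 3092 and 5580 for Slc20a1, 676 and 1187 for Mgp, and 2436 and 4033 for Alpl. Orders and spans between species depend on these lengths. By share of counts, Enpp1 took 0.0124% to 0.0134% in RM and 0.0060% to 0.0063% in MC. Mgp ran RM, RC, MC, MM from highest to lowest, with a 48.3-fold span and no overlap between neighbours. Ucma and Ank both ran RC, RM, MC, MM, with spans of 641-fold and 8.11-fold and no overlap. Enpp1 and Slc20a1 ran RM, RC, MM, MC, with spans of 5.28-fold and 6.77-fold and no overlap. For Spp1 the order was RM, MM, RC, MC and for Alpl it was RC, MC, RM, MM, and in both the RM and MM libraries overlapped. Ibsp ran MC, RC, RM, MM, where RC and RM overlapped, and Phospho1 ran RM, RC, MM, MC, where control and model overlapped within each species.

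The change itself was compared between species in a fit over all 12 libraries and the 10913 genes that share a symbol and passed the filter on low counts. That fit used a spread per gene shared by rat and mouse, although the rat libraries varied more. The difference, mouse change minus rat change, was past 0.85 with an adjusted P below 0.05 for 5 of the 9 members, against 30.3% of all tested genes. For the members it is a description. It was -3.63 (SE 0.09) for Mgp, -5.65 (SE 0.18) for Ucma, 2.63 (SE 0.10) for Spp1 and -6.55 (SE 0.45) for Ibsp. For Alpl it was 0.90 (SE 0.17), near the limit, and it went to 0.60 when library size alone was used for scaling, to 0.84 without RC replicate 2 and to 0.82 without RM replicate 1. It was 0.53 (SE 0.08) for Enpp1, 0.63 (SE 0.52) for Phospho1, 0.07 (SE 0.07) for Ank and 0.12 (SE 0.10) for Slc20a1. The values for Ank and Slc20a1 turned negative, to -0.22 and -0.17, with library size alone.

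**Figure D4:**
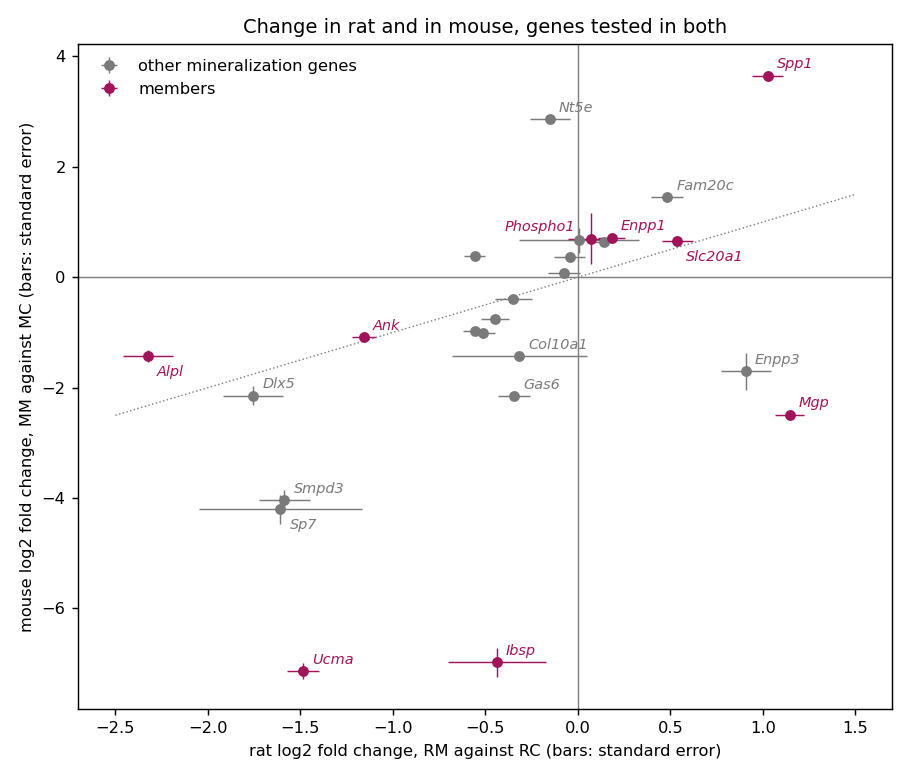
Log2 fold change of model against control in rat (horizontal axis) and in mouse (vertical axis) for the members and for the other mineralization genes tested in both species, with standard errors; the dotted line marks equal change. Mgp and Enpp3 lie in the lower right corner (higher in RM, lower in MM), and Nt5e lies near 0 in rat and at 2.86 in mouse.

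A wider list of 30 mineralization genes was set from textbook roles, with some results of these data known. Of these, 25 were listed in rat, where 18 passed the filter on low counts, 1 was called higher, 2 lower and 15 neither way, with a median log2 fold change of -0.35. In mouse 29 were listed and 23 passed, of which 2 were called higher, 9 lower and 12 neither way, with a median of -0.97. Beside these counts, the calls over all tested genes were 4.64% higher and 3.90% lower in rat, and 12.6% higher and 13.0% lower in mouse. The genes of this list named below are mostly those called. Their adjusted P values therefore describe these libraries and are no independent test.

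Among the phosphate and pyrophosphate genes, Smpd3, a neutral sphingomyelinase needed for bone and cartilage mineralization, fell in both species. Its FPKM went from 2.59 ± 0.330 (SD, n = 3) in RC to 0.870 ± 0.0206 in RM, a log2 fold change of -1.59 (SE 0.14; edgeR quasi-likelihood test, adjusted P = 1.34e-05). In mouse it went from 2.83 ± 0.128 in MC to 0.141 ± 0.0318 in MM, a log2 fold change of -4.04 (SE 0.18; edgeR, adjusted P = 2.00e-29). Nt5e, the ecto-nucleotidase CD73 that turns AMP into adenosine and phosphate, rose in mouse from 5.95 ± 0.398 to 35.7 ± 0.800 FPKM with a log2 fold change of 2.86 (SE 0.04; edgeR, adjusted P = 1.55e-57), whereas in rat it was 7.57 ± 0.888 and 6.90 ± 0.636 and was not called. Enpp3, a relative of Enpp1 that also cleaves nucleotides, rose in rat from 3.00 ± 0.410 to 5.69 ± 0.619 FPKM, a log2 fold change of 0.91 (SE 0.14; edgeR, adjusted P = 0.000514), and this call was lost without RC replicate 2 (0.80). In mouse Enpp3 was below 1 FPKM in every library, with 116 counts in MC and 32 in MM, a log2 fold change of -1.71 and no call by the criteria.

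Of the Gla protein and vitamin K genes, 3 of 4 tested were called lower in mouse, against 13.0% of all tested genes, and 0 of 3 in rat, against 3.90%. These counts cover different genes, since Bglap and Vkorc1l1 were tested in mouse alone and Vkorc1 in rat alone. Rat Vkorc1 was at -0.58 (SE 0.12), with no overlap of the groups, and was not called. Rat Vkorc1l1 had 18 counts in RC and 48 in RM. Of the acidic matrix genes and their kinase 1 of 3 was called higher in mouse, against 12.6% of all tested genes, and 1 of 3 lower, against 13.0%. In rat 0 of 2 was called, against 4.64% higher and 3.90% lower. Gas6, a Gla protein that binds receptor tyrosine kinases, fell from 232 ± 9.93 to 43.1 ± 1.94 FPKM in mouse, a log2 fold change of -2.16 (SE 0.03; edgeR, adjusted P = 3.86e-54). Vkorc1l1, a reductase of the vitamin K cycle, fell from 9.49 ± 0.399 to 3.99 ± 0.0747 FPKM, a log2 fold change of -0.97 (SE 0.06; edgeR, adjusted P = 1.95e-21), and Bglap, osteocalcin, fell on 42 against 11 counts (-1.76, SE 0.51; edgeR, adjusted P = 0.00161). Mouse osteocalcin has near-identical gene copies, so that the Bglap counts are uncertain. Ggcx, the carboxylase that makes Gla residues, was lower in both models with no overlap of the groups. It was not called, at -0.45 (SE 0.08, rat) and -0.76 (SE 0.05, mouse) on the log2 scale, under the fold limit. Its mouse FPKM went from 21.8 ± 0.686 to 10.6 ± 0.810, a plain ratio of 0.486, which is a larger fall than that of the TMM-scaled fit. Fam20c, the kinase of osteopontin and related proteins, rose in mouse from 8.09 ± 0.212 to 18.2 ± 0.956 FPKM, a log2 fold change of 1.45 (SE 0.05; edgeR, adjusted P = 3.10e-38). Sparc, osteonectin, fell from 1583 ± 52.7 to 664 ± 4.36 FPKM in mouse, a log2 fold change of -0.97 (SE 0.02; edgeR, adjusted P = 3.88e-44). In rat Gas6 (-0.34, SE 0.09), Fam20c (0.48, SE 0.09) and Sparc (-0.56, SE 0.06) moved the same way, with no overlap of the groups. These rat changes stayed below the fold limit and were not called.

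Among regulators of osteoblasts and hypertrophy, the homeobox gene Dlx5 fell in both species, from 11 ± 0.358 to 3.28 ± 0.779 FPKM in rat (-1.76, SE 0.16; edgeR, adjusted P = 2.02e-05) and from 4.78 ± 0.145 to 0.879 ± 0.277 in mouse (-2.14, SE 0.17; edgeR, adjusted P = 2.70e-18). Sp7, osterix, and Col10a1, the collagen of hypertrophic chondrocytes, fell in mouse. The mouse log2 fold change was -4.20 for Sp7 (433 against 21 counts; edgeR, adjusted P = 6.46e-23) and -1.43 for Col10a1 (18.5 ± 0.228 to 5.67 ± 0.328 FPKM; edgeR, adjusted P = 1.10e-29). In rat Sp7 also had fewer counts in RM than in RC, 15 against 45 with no overlap of the groups (-1.61, SE 0.44; edgeR, adjusted P = 0.0170), and it was not called because every rat library was below 1 FPKM. Col10a1 in rat was at -0.32 (SE 0.36), with overlapping groups. Of the annexins, calcium-binding proteins of matrix vesicles, Anxa6 fell in mouse by 1.01 on the log2 scale (edgeR, adjusted P = 6.20e-37), and Anxa2 and Anxa5 were not called. In rat Anxa6 was at -0.51 (SE 0.07), with no overlap of the groups, and was not called. Anxa5 was at -0.56 (SE 0.06) in rat and 0.39 (SE 0.03) in mouse.

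In the fit over both species, 17 of the 30 genes were tested and the change of 8 differed, against 30.3% of all 10913 tested genes. The mouse change was higher for Nt5e by 3.01 (SE 0.12; edgeR, adjusted P = 8.71e-13), Fam20c by 0.97 (SE 0.10; adjusted P = 2.64e-07) and Anxa5 by 0.95 (SE 0.06; adjusted P = 5.49e-10). It was lower for Enpp3, Smpd3, Gas6, Sp7 and Col10a1, with differences between -2.62 for Enpp3 and -1.10 for Col10a1. With library size alone Fam20c (0.67) and Anxa5 (0.65) were under the limit of 0.85, which left 6 genes, and Col10a1 was under it without RC replicate 1 (-0.78) or without RM replicate 1 (-0.76). For Dlx5 the difference was -0.40 (SE 0.25), with an edgeR adjusted P of 0.18.

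The genes whose pattern was most like that of 3 members were found by the root mean square difference, over the 12 libraries and among 10912 genes, of log2 CPM (counts scaled to library size) from the control mean of the same species. The measure describes these libraries only, which share their groups and treatment. For Mgp the nearest were Clspn (0.11), Cdo1 (0.16) and Pclaf (0.16), with log2 fold changes of 1.22, 1.02 and 1.00 in rat and -2.39, -2.38 and -2.69 in mouse. For Ucma they were Matn3 (0.22), Car3 (0.39) and Eln (0.57), with -1.69, -1.16 and -2.54 in rat and -7.08, -7.25 and -7.23 in mouse. For Spp1 they were Bnip3 (0.10), Slc2a1 (0.13) and Egln1 (0.13), with 1.04, 0.99 and 0.87 in rat and 3.57, 3.52 and 3.54 in mouse.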

How the data were processed

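RNA of passage 1 chondrocytes was sequenced for the authors by a service company, as 12 NEBNext Ultra libraries in 4 groups of 3. The deposited tables give, for each gene and library, read counts and FPKM values. The submitters' processing notes list HISAT2, HTSeq 0.11.2 and the builds GRCm38 and Rnor_6.0, with no roles, and for the strand setting of the counting the sources used here give no word. The FPKM values deposited by the authors are scaled to library size and gene length. The lengths they imply equal the merged exon lengths of GENCODE M21 for the listed mouse genes, from which the mouse positions were taken.

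Counts were fitted within each species by edgeR 4.0.16 (R 4.3.3) with filterByExpr, TMM scaling and the quasi-likelihood test, with Benjamini-Hochberg adjustment over all tested genes. The difference between species was the interaction in 1 fit over 12 libraries, with TMM within species. That fit took 1 spread per gene for rat and mouse together. Fitted apart, the common biological coefficient of variation (spread beyond sampling noise) was 0.106 in rat and 0.032 in mouse. The SE and P of a difference can therefore misstate the spread within either species. The same steps were tested on simulated data. Alternatives used DESeq2 1.42.0, limma 3.58.1 on log2(FPKM + 1) or log2(FPKM + 0.1), other scaling, filters and thresholds, a replicate block, and leaving out each library. Within a group no 2 libraries agreed within sampling noise, so each counted as 1 replicate. The mean chi-square per gene of such pairs, near 1 under sampling noise alone, was 1.90 to 2.48 in mouse and 6.07 to 27.8 in rat. These values cannot tell separate cultures from repeat libraries of 1 culture. P values rest on the spread between the 3 libraries of a group, taken over both species for the difference between them. With 3 libraries against 3, no exact permutation P can be below 0.1. Depth sets a floor of 3 counts, and intervals cover counting error only.

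The named genes were all members, every gene of the wider list called in at least 1 species, and the 3 genes most like Mgp, Ucma and Spp1. Ggcx, Vkorc1, Anxa2, Anxa5, Dmp1 and Mepe were named after their values were seen. The members and lists were chosen with earlier results of these data known. Promoters were read from RefSeq (GRCr8).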

Additional observations from a re-analysis of the deposited data

Results flagged for a closer look

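The change with IL-1β differed between mouse and rat, by the interaction test of edgeR, for the following genes, each given as the mouse log2 fold change minus the rat one. The members are listed as a description, since they were chosen with these contrasts known. Among them the difference was -3.634 for Mgp, -5.647 for Ucma, 2.625 for Spp1, -6.554 for Ibsp and 0.896 for Alpl. Among the other mineralization genes it was 3.014 for Nt5e, -2.616 for Enpp3, -2.456 for Smpd3, 0.9654 for Fam20c, -1.81 for Gas6, 0.9485 for Anxa5, -2.614 for Sp7 and -1.101 for Col10a1. Those of Alpl, Fam20c, Anxa5 and Col10a1 fell under the limit of 0.85 in some of the alternatives. Groups of 3 libraries were too small for a test of single outlying libraries.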

How the results depend on the processing

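The counts of called genes in both lists moved by over 1.5 times under 5 settings. With an adjusted P below 0.05 alone, without a size or FPKM minimum, 3 members were higher in MM in place of 1. The other mineralization genes then numbered 2 higher and 10 lower in rat, 6 higher and 15 lower in mouse, and 13 of 17 whose change differed between the species in place of 8. No share over all tested genes is given at this setting, so nothing is read from these counts. The 1 other gene called higher in rat, Enpp3, became 2 genes with no filter on low counts and 0 genes with limma on log2(FPKM + 1), where Enpp3 was at 0.74, or with a log2 fold change of at least 1. Leaving out 1 library each gave 0 to 1. The rat value of Phospho1 ran from -0.04363 to 0.1272 over these runs and was negative without RC replicate 1. With library size alone the differences between species turned to -0.2221 for Ankh and -0.1715 for Slc20a1, and those of Alpl (0.60), Fam20c (0.67) and Anxa5 (0.65) fell under the limit. That of Col10a1 was under it without RC replicate 1 (-0.78) or RM replicate 1 (-0.76). Bglap in mouse was at -0.82 in limma, and Egln1 in rat was at 0.81 without RC replicate 1. In all, 970 of 984 recomputed values kept their direction and call, and 135 recomputed counts stayed within 1.5 times their value while 10 did not. A kept direction and call does not mean a kept size. With limma on log2(FPKM + 1), where low values are pulled together, mouse Ibsp was at -3.13, Ucma at -5.59, Sp7 at -1.65 and Enpp3 at -0.33. In the main fit they were at -6.97, -7.13, -4.20 and -1.71. The cause of each move was not tested.

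Same-numbered libraries correlated by -0.10 to 0.08 in rat and by 0.001 to 0.015 in mouse in their deviations. In rat, control and model libraries with different numbers ran from -0.19 to 0.16. No pairing by number was seen, but these values cannot tell whether same-numbered libraries shared a culture. The replicate block left the members called at 2 higher and 3 lower in rat and 1 higher and 5 lower in mouse. By Pearson correlation the genes most like Mgp were Mcm5, Clspn and Uhrf1, those most like Ucma were Pcsk6, Tgfbr2 and Tgfb3, and those most like Spp1 were Ptgs2, Errfi1 and Il6, so that 1 of 9 names was shared. Depth limits Ibsp and Ucma in MM and Phospho1 in mouse.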
